A study of Mus musculus with 24 samples.

Results

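The genes described here encode RANK, the receptor of RANKL on the osteoclast precursor, and the proteins that carry its signal inside the cell. Members were the rows of the deposited count table whose symbol is Tnfrsf11a (RANK itself), Traf1, Traf2, Traf3, Traf5, Traf6, Map3k14, Cyld, Tab2 or Gab2. All 10 names were found, each in 1 row, among 54532 genes, and all 10 passed the filter on low counts. The RNA came from macrophages grown out of mouse bone marrow, plated at 15000 cells per well and kept for 3 or 5 days. The cells labelled Runx1 overexpression came from LysM-Cre;Rosa26-Runx1tg/+ mice, in which the myeloid lysozyme gene Lyz2 drives Cre. The control cells came from Rosa26-Runx1tg/+ mice, which carry the same transgene without Cre. Cells of both genotypes received M-CSF (macrophage colony-stimulating factor, needed for macrophage survival) at 30 ng/mL with RANKL at 50 ng/mL, or M-CSF alone. The sources used here do not give the dose of M-CSF alone. Each of the 8 groups of genotype, medium and day held 3 libraries, 24 in all. Nothing in the labels says whether the 3 came from separate mice or cultures, so p-values measure only the spread between these samples, which may be technical, at least in part. In Runx1-labelled cells the counts of sex-linked genes given below show that number 3 and numbers 1 and 2 came from different mice.

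RANK has no enzyme activity of its own. When RANKL binds, its tail recruits TRAF proteins, adaptors that bind receptors of the TNF receptor family. TRAF6 builds ubiquitin chains to which TAB2 docks, which brings the kinase TAK1 to the receptor and starts NF-κB and MAP kinase signalling, and CYLD removes such chains. TRAF2 and TRAF3 hold the kinase NIK, the product of Map3k14, at a low level until receptor engagement, after which NIK starts the non-canonical NF-κB branch. GAB2 is a docking protein that links RANK to this signalling, and mice without TRAF6 or GAB2 form too few working osteoclasts.

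Library totals lay between 18975750 and 24268936 counts in all but 1 library, which had 36523995, number 3 of the Runx1-labelled cells at day 5 with RANKL. A single read was worth 0.0286 to 0.0542 CPM, a gene's count relative to the library total after TMM scaling on the bulk of genes. Runx1 itself averaged 57.9 ± 8.23 CPM in Runx1-labelled and 51.5 ± 0.862 CPM in control cells at day 3 with RANKL, and 106 ± 3.97 CPM and 106 ± 11.9 CPM at day 5 in M-CSF alone (SD, n = 3 each). Runx1-labelled over control, Runx1 differed by a log2 fold change of 0.17 and 0.23 with RANKL and 0.12 and 0.00 in M-CSF alone at days 3 and 5, each with an adjusted p of 1 by edgeR, so the label is used below as a label. The 4 Runx1-labelled libraries numbered 3 held 542 to 847 counts of Y-linked genes and 2 to 12 of Xist, and the other 20 held 0 to 1 and 14963 to 28379. The labels give no sex for the mice. Genotype differences are given below with and without these 4 libraries for Traf1 and Tnfrsf11a in M-CSF alone. They are also given for members that fell under an unadjusted p of 0.05 without them. Summed CPM of 10 osteoclast markers ran from 36220 to 59916 with RANKL and from 111 to 175 in M-CSF alone, and 9 macrophage markers from 2970 to 4588 and from 7405 to 10553. Of 9 lymphocyte markers 5 to 7 had 0 counts in each group, and the sum was at most 1.98 CPM.

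The DNA next to the start sites was read from RefSeq's promoter table (GRCm38.p6), which held windows of 250 bases before to 50 after the start for 9 of the 10 genes, and 2 windows for Tab2. The windows were searched on both strands for the letters TGTGGT (the core that Runx proteins bind), GGGANNNNCC (an NF-κB form), TGANTCA (AP-1) and GAGGAA (PU.1). Of all 32851 promoters in the table, 16.8%, 20.7%, 7.81% and 28.3% held these letters. The Runx letters lay in the windows of Traf1, Traf6 and Traf5. The 250 bases before these 3 starts are shown because Runx1 is the factor the genotype was built to change. They are read 5′ to 3′ along the gene's strand, from chr2:34961773-34962022 on the minus strand for Traf1, chr2:101678170-101678419 on the plus strand for Traf6 and chr1:192092600-192092849 on the minus strand for Traf5.

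Traf1: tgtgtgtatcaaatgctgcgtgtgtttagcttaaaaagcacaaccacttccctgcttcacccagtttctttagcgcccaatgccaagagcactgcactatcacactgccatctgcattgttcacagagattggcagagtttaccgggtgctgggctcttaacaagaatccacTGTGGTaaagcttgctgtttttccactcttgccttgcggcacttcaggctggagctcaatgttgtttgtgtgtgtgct
Traf6: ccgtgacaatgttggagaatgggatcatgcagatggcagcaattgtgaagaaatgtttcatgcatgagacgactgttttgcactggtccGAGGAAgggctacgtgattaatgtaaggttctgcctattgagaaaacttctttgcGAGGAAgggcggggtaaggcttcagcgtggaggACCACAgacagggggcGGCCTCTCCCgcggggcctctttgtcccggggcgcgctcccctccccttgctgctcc
Traf5: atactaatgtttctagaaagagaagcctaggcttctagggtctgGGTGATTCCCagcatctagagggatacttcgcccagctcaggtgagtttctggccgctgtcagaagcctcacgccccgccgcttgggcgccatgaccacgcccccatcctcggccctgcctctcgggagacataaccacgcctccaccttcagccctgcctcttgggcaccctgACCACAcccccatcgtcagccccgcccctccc

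Capitals mark the matched letters. In Traf1 they are the Runx letters alone, 78 to 73 bases before the start. In Traf6 they are 2 PU.1 matches, then the Runx letters on the opposite strand 73 to 68 bases before the start, then the NF-κB form on the opposite strand. In Traf5 they are the NF-κB form and, nearest the start, the Runx letters 32 to 27 bases before it, both on the opposite strand. No matches overlapped. Traf2 and Cyld held the NF-κB form and the PU.1 letters, Traf3 and 1 window of Tab2 the PU.1 letters alone, and Tnfrsf11a, Map3k14 and the other Tab2 window none of the 4. A match is a run of letters and no evidence of binding.

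RANKL raised the receptor and most of its adaptors. Tnfrsf11a, Traf6, Traf1, Traf2, Traf3, Traf5 and Cyld were higher with RANKL than in M-CSF alone in all 4 comparisons (2 genotypes at 2 days), Map3k14 was lower in 3 of the 4, Tab2 went either way and Gab2 passed the test in none. By edgeR's quasi-likelihood test with Benjamini-Hochberg adjustment over all genes, at an adjusted p under 0.05, 7 members were higher and 0 lower in Runx1-labelled cells at day 3, where 59.2% of the 15035 tested genes were called (29.1% higher and 30.1% lower). At day 5 these cells had 7 members higher and 2 lower, where 52.4% of genes were called (27.5% and 24.9%). In control cells 8 were higher and 1 lower at day 3, where 59.1% of genes were called (29.5% and 29.7%), and 7 higher and 1 lower at day 5, where 49.4% were called (26.4% and 23.1%). In Runx1-labelled cells at day 3 DESeq2 called 9 members and 9022 of the 15035 genes. By edgeR 9 members and 9439 of all genes had an unadjusted p under 0.05. Of all tested genes, 17.8% were higher in all 4 comparisons and 16.3% lower. All RANKL libraries lay above all M-CSF libraries for 29.1% and 33.2% of genes in Runx1-labelled cells at days 3 and 5, and below for 29.1% and 30.6%. In control cells they lay above for 30.6% and 34.8% and below for 30.5% and 30.3%. Lack of overlap between media below is to be read against these shares. The members' median log2 fold change was 1.05 and 0.71 in Runx1-labelled and 1.06 and 0.63 in control cells at days 3 and 5, and the median over all genes lay between -0.03 and 0.03. The markers given above moved with the medium too: osteoclast sums were higher with RANKL and macrophage sums lower. Not every macrophage marker was lower: at day 3 Cd68 was higher with RANKL by 0.39 in Runx1-labelled and 0.29 in control cells on the log2 scale (adjusted p 0.00493 and 0.0333), and Csf1r, the M-CSF receptor, differed by -0.23 and -0.44 (adjusted p 0.336 and 0.0577). In bulk RNA fewer cells of a type and less RNA per cell cannot be told apart, and what part the mix of cells had in any of these differences was not tested.

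**Figure D1:**
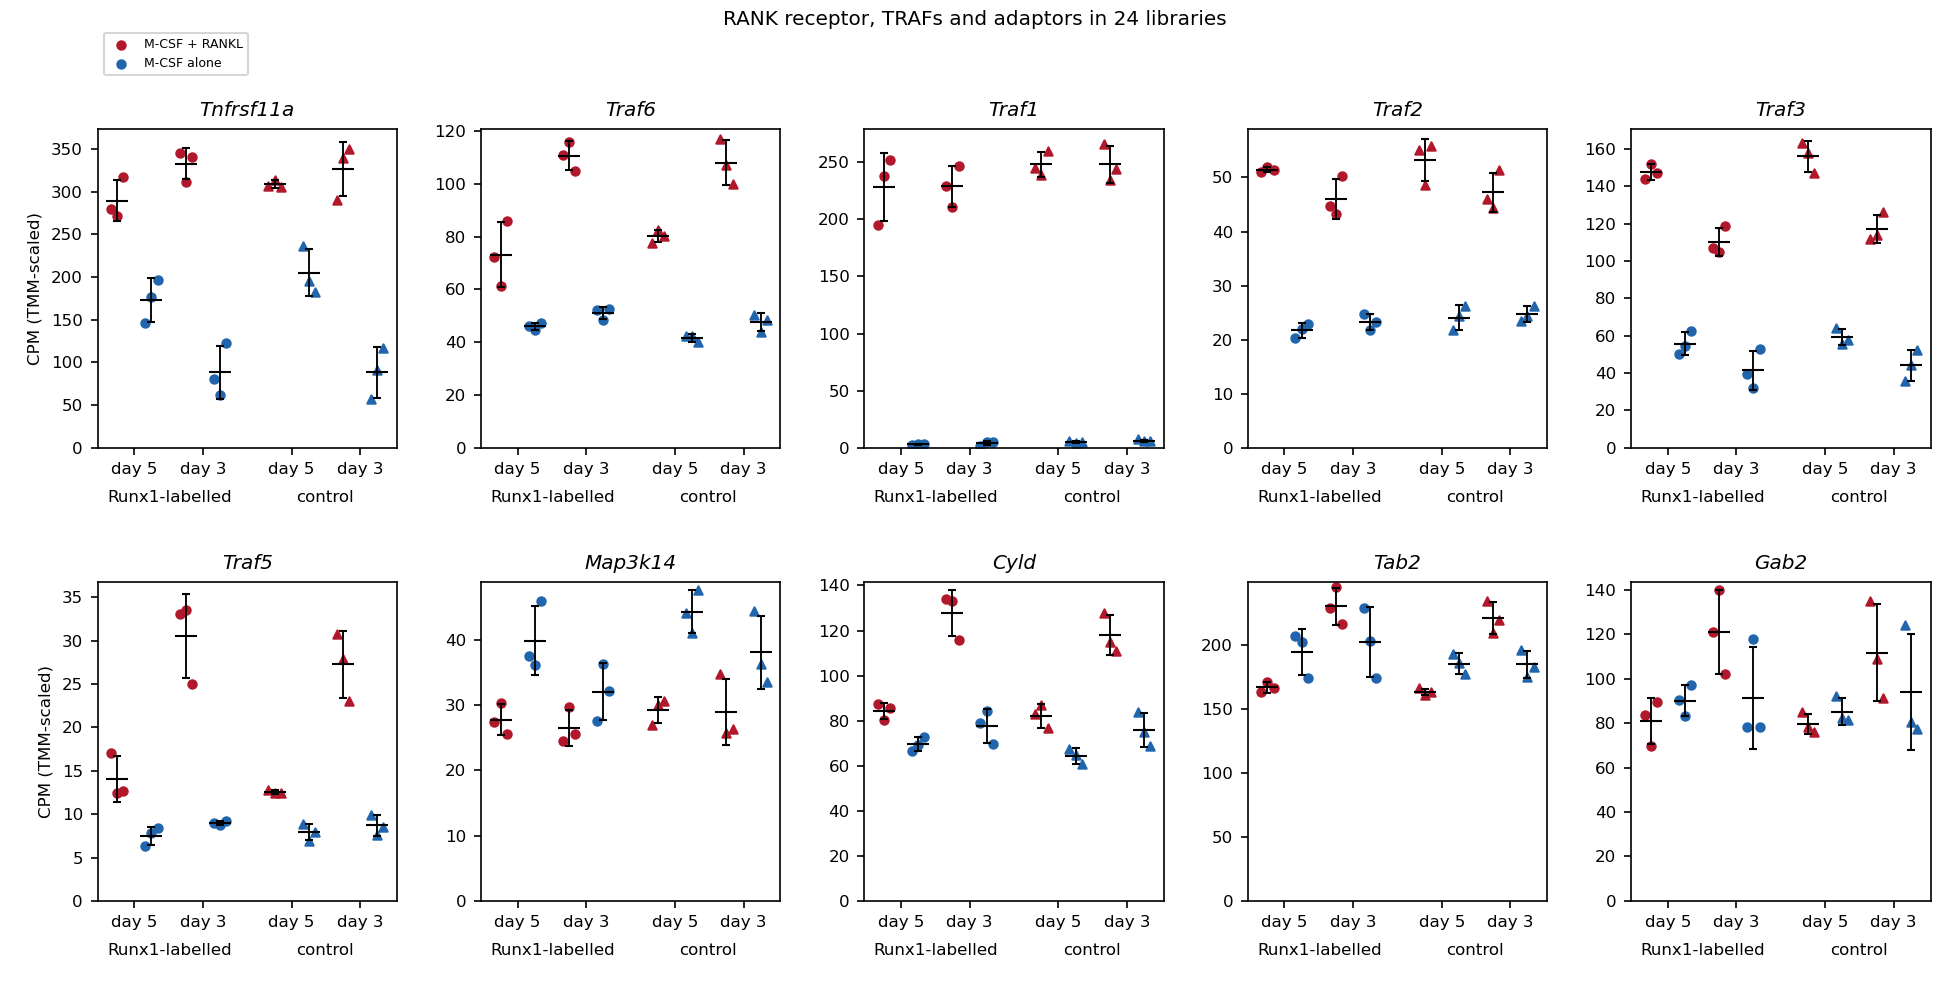
TMM-scaled CPM (vertical axis, linear from 0) of the 10 genes in each of the 24 libraries, by genotype, day and medium. Red points are M-CSF with RANKL and blue points M-CSF alone, circles are Runx1-labelled and triangles control libraries, and black bars are the mean ± SD of 3 libraries. Traf1 lies at 195 to 266 CPM in every RANKL library and at 1.85 to 7.37 CPM in every library in M-CSF alone.

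Tnfrsf11a, on chromosome 1 (ENSMUSG00000026321, chr1:105780718-105847981 in the deposited table, plus strand), was high in every RANKL library at either day. At day 3 it had 346, 312 and 341 CPM in Runx1-labelled cells with RANKL, against 80.3, 61.7 and 123 CPM in M-CSF alone. In control cells at day 3 it had 290, 340 and 350 CPM with RANKL, against 57.3, 90.7 and 117 CPM in M-CSF alone. The media did not overlap in either genotype, and the receptor was 3.77-fold higher in Runx1-labelled cells (log2 fold change 1.91, SE 0.22, adjusted p 2.23e-07) and 3.7-fold higher in control cells (1.89, SE 0.22, adjusted p 2.73e-07). At day 5 it had 280, 272 and 317 CPM in Runx1-labelled cells with RANKL, against 146, 177 and 197 CPM in M-CSF alone. In control cells at day 5 it had 307, 314 and 306 CPM with RANKL, against 236, 196 and 183 CPM in M-CSF alone. The values still did not overlap, but the gap was smaller: 1.67-fold in Runx1-labelled (log2 0.74, SE 0.21, adjusted p 0.006) and 1.51-fold in control cells (log2 0.59, SE 0.21, adjusted p 0.0255). The call in control cells at day 5 was lost when any of 5 of its 6 libraries was left out, all but number 1 in M-CSF alone, with adjusted p 0.0518 to 0.116 and log2 fold changes of 0.48 to 0.60, and with no filter on low counts (0.65, adjusted p 0.0561).

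Over the 8 group means of log2 CPM, the genes whose pattern was most like that of Tnfrsf11a among 10462 ranked were Gse1 (Pearson r 0.998), Riok3 (0.997), Dnaja1 (0.996) and Maff (0.995). They share libraries, media and days with it, and 883 genes had an r over 0.9, so the likeness is a description. Maff, a small basic leucine zipper factor, averaged 17.1 CPM in Runx1-labelled cells at day 3 with RANKL, against 1.38 CPM in M-CSF alone, a wider range than that of the receptor.

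Per kilobase of merged exons, which allows genes to be set side by side, Tnfrsf11a stood first of the 10 in each RANKL group (SD, n = 3 throughout). Its level was 55.6 ± 3.03 and 48.4 ± 4.01 CPM per kb in Runx1-labelled cells at days 3 and 5 with RANKL, and 54.6 ± 5.32 and 51.6 ± 0.744 CPM per kb in control cells, apart from the next gene in all 4 groups. Tab2 or Traf1 came next, at 37.5 ± 2.32 CPM per kb for Tab2 and 26.0 ± 2.01 CPM per kb for Traf1 in Runx1-labelled cells at day 3 with RANKL. The lowest levels with RANKL were those of Map3k14 at day 3 (4.06 ± 0.424 CPM per kb in Runx1-labelled and 4.41 ± 0.763 in control cells) and of Traf5 at day 5 (3.08 ± 0.57 and 2.74 ± 0.0551 CPM per kb). The order in M-CSF alone was another. Tab2 led at day 3, at 32.9 ± 4.51 CPM per kb in Runx1-labelled and 30.1 ± 1.73 CPM per kb in control cells, with Gab2 and Tnfrsf11a after it at levels whose ranges overlapped. At day 5 in M-CSF alone the ranges of Tab2 and Tnfrsf11a overlapped (31.7 ± 2.91 and 28.9 ± 4.27 CPM per kb in Runx1-labelled, 30.2 ± 1.38 and 34.3 ± 4.63 CPM per kb in control cells). Traf1 was last in all 4 groups in M-CSF alone, at 0.332 to 0.705 CPM per kb. At day 3 in M-CSF alone, Traf6, Cyld, Traf3, Map3k14 and Traf2 followed one another with overlapping ranges in both genotypes. These orders depend on the length used. Divided by the longest transcript, Traf1 and not Tnfrsf11a had the highest mean in each RANKL group, with 66.6 ± 5.15 against 66.2 ± 3.61 CPM per kb in Runx1-labelled cells at day 3. The ranges of the pair overlapped in 3 of the 4 groups and were apart in control cells at day 5, at 72.2 ± 3.19 for Traf1 and 61.5 ± 0.885 CPM per kb for Tnfrsf11a.

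**Figure D2:**
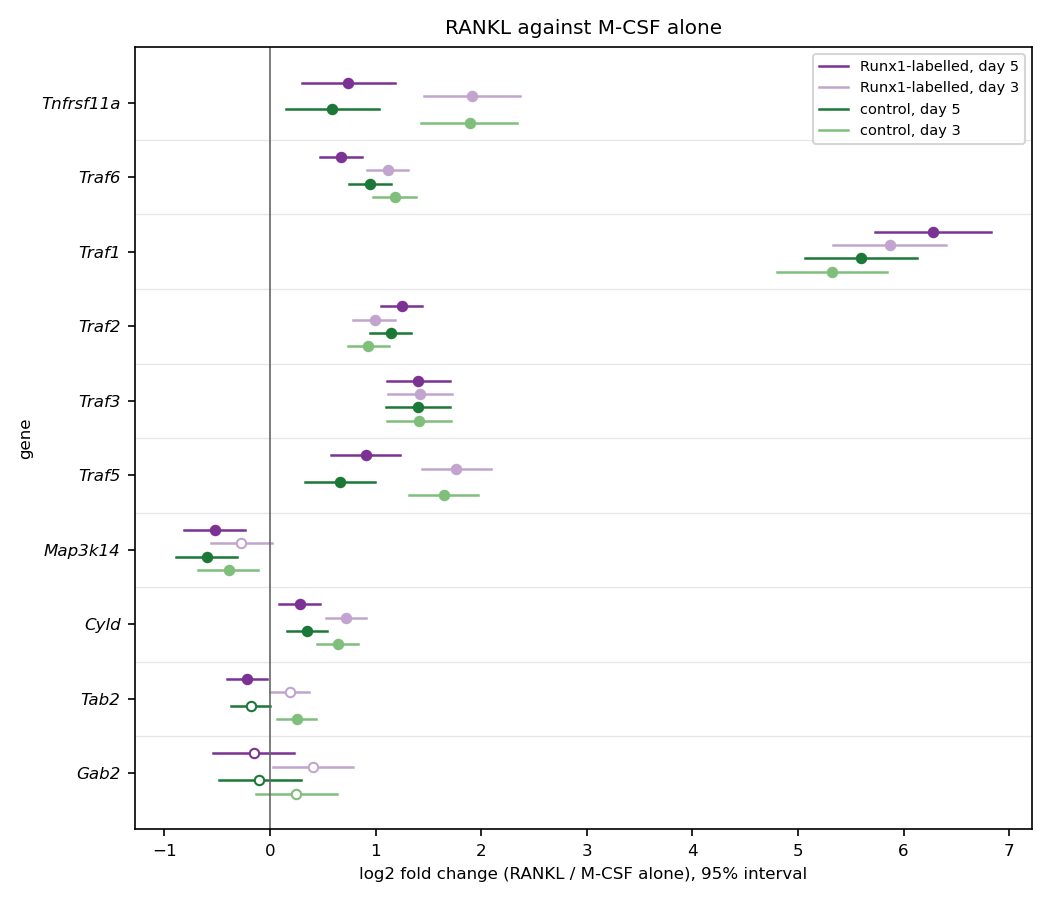
Log2 fold change of RANKL over M-CSF alone (horizontal axis) for the 10 genes, with 95% intervals from edgeR, in Runx1-labelled cells (purple) and control cells (green) at days 5 and 3. Filled points passed an adjusted p under 0.05. Traf1 lies between 5.32 and 6.28, and the other 9 genes lie between -0.60 and 1.91.

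Traf6 encodes the ubiquitin ligase that docks on the RANK tail (ENSMUSG00000027164, chr2:101678429-101701669), and it rose with RANKL in each comparison. It had 111, 116 and 105 CPM in Runx1-labelled cells at day 3 with RANKL, against 52.3, 48.5 and 52.4 CPM in M-CSF alone. Control cells had 117, 107 and 99.9 CPM with RANKL, against 50.3, 43.9 and 48.5 CPM. Each RANKL library was above each M-CSF library, and the differences were 2.17-fold (log2 1.12, SE 0.09, adjusted p 2.23e-09) and 2.27-fold (log2 1.18, SE 0.10, adjusted p 1.03e-09). At day 5 Traf6 had 72.2, 61.3 and 85.9 CPM in Runx1-labelled cells with RANKL, against 46.0, 44.8 and 47.2 CPM in M-CSF alone. Control cells at day 5 had 77.7, 82.3 and 80.4 CPM with RANKL, against 42.3, 42.4 and 39.9 CPM. The gap was 1.59-fold (adjusted p 4.65e-06) and 1.93-fold (adjusted p 4.28e-08).

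Traf1 had the largest change of the 10. It encodes the TRAF without a RING domain, is transcribed in answer to NF-κB in many cells and binds TRAF2. At day 3 it had 229, 211 and 247 CPM in Runx1-labelled cells with RANKL, against 1.85, 4.66 and 5.27 CPM in M-CSF alone. In control cells it had 266, 234 and 244 CPM with RANKL, against 7.37, 5.59 and 5.68 CPM. No library came near the gap between the media: RANKL over M-CSF alone was 58.4-fold in Runx1-labelled (log2 5.87, SE 0.26, adjusted p 2.09e-13) and 39.9-fold in control cells (log2 5.32, SE 0.25, adjusted p 5.26e-13). At day 5 Traf1 had 195, 238 and 252 CPM in Runx1-labelled cells with RANKL, against 2.08, 3.03 and 3.69 CPM in M-CSF alone. In control cells it had 245, 239 and 260 CPM with RANKL, against 5.59, 4.28 and 5.41 CPM. That made 77.7-fold in Runx1-labelled (log2 6.28, SE 0.27, adjusted p 2.75e-13) and 48.6-fold in control cells (log2 5.60, SE 0.25, adjusted p 7.48e-13). Traf1 lies on the minus strand of chromosome 2 (ENSMUSG00000026875, chr2:34941750-34961772).

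Traf2 and Traf3, which together hold NIK in check, both rose under RANKL. Traf2 (ENSMUSG00000026942, chr2:25517982-25546940) lay between 43.2 and 51.9 CPM in the 6 Runx1-labelled RANKL libraries, against 20.3 to 24.7 CPM in M-CSF alone. In control cells its range was 44.3 to 55.9 CPM with RANKL, against 21.7 to 26.3 CPM. The media stayed apart throughout, with log2 fold changes of 0.99 and 1.25 in Runx1-labelled and 0.93 and 1.15 in control cells at days 3 and 5 (SE 0.09 each, adjusted p at most 2.07e-08). Traf3 (ENSMUSG00000021277, chr12:111166370-111267153) had 107, 105 and 119 CPM in Runx1-labelled cells at day 3 with RANKL, against 39.7, 31.8 and 52.7 CPM in M-CSF alone. At day 5 these cells had 144, 152 and 147 CPM with RANKL, against 50.1, 54.7 and 62.7 CPM. Control cells had 112, 114 and 126 CPM at day 3 and 163, 158 and 147 CPM at day 5 with RANKL, against 36.0, 44.1 and 52.6 CPM and 64.0, 55.6 and 57.8 CPM in M-CSF alone. Its response was close at both days, with log2 fold changes of 1.42 and 1.40 in Runx1-labelled and 1.41 and 1.40 in control cells, SE 0.14 each (adjusted p at most 5.44e-08).

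Traf5, a close relative of Traf3 (ENSMUSG00000026637, chr1:191997205-192092559), had its highest levels at day 3 with RANKL in both genotypes. It had 33.1, 33.5 and 25.0 CPM in Runx1-labelled cells at day 3 with RANKL, against 8.93, 8.80 and 9.20 CPM in M-CSF alone. In control cells Traf5 had 30.8, 27.9 and 23.1 CPM with RANKL, against 9.93, 7.60 and 8.55 CPM. Its levels with RANKL were 3.4-fold (log2 1.76, SE 0.16, adjusted p 3.81e-09) and 3.14-fold (log2 1.65, SE 0.16, adjusted p 1.12e-08) above those in M-CSF alone. At day 5 Traf5 had 17.1, 12.4 and 12.7 CPM in Runx1-labelled cells with RANKL, against 6.29, 7.80 and 8.36 CPM. In control cells it had 12.8, 12.4 and 12.4 CPM with RANKL, against 8.83, 6.93 and 7.99 CPM. The media were still apart, at 1.88-fold (adjusted p 5.36e-05) and 1.58-fold (adjusted p 0.00146). Traf5 shares 205 exonic bases with the antisense Gm26879 and 65 with Mir3473c, which had 7 and 11 counts over all libraries against 7838 for Traf5, and whether reads were counted by strand is not stated in the labels or notes.

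Set side by side per kilobase, the 5 TRAFs summed to 70.7 ± 2.09 CPM per kb in Runx1-labelled cells at day 3 with RANKL, against 19.1 ± 1.90 CPM per kb in M-CSF alone, and to 73.0 ± 2.81 against 19.5 ± 1.28 CPM per kb in control cells. Traf1 made up 36.7% ± 1.75 of that sum with RANKL in Runx1-labelled cells at day 3, against 2.34% ± 1.08 in M-CSF alone, and 38.5% ± 1.05 against 3.63% ± 0.704 in control cells (SD, n = 3). The share of Traf6 was 19.9% ± 1.51 with RANKL in Runx1-labelled cells at day 3, against 34.1% ± 2.14 in M-CSF alone, although its own level was higher. At day 5 the share of Traf3 was 29.4% ± 1.53 and that of Traf5 was 4.53% ± 1.08 with RANKL in Runx1-labelled cells, against 38.6% ± 1.41 and 8.32% ± 0.668 in M-CSF alone. With the longest transcript as the length, the share of Traf1 was 52.8% ± 2.35 in Runx1-labelled cells at day 3 with RANKL, against 4.52% ± 2.05 in M-CSF alone. These shares were chosen for display after the values were seen, and no test was run on them.

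**Figure D3:**
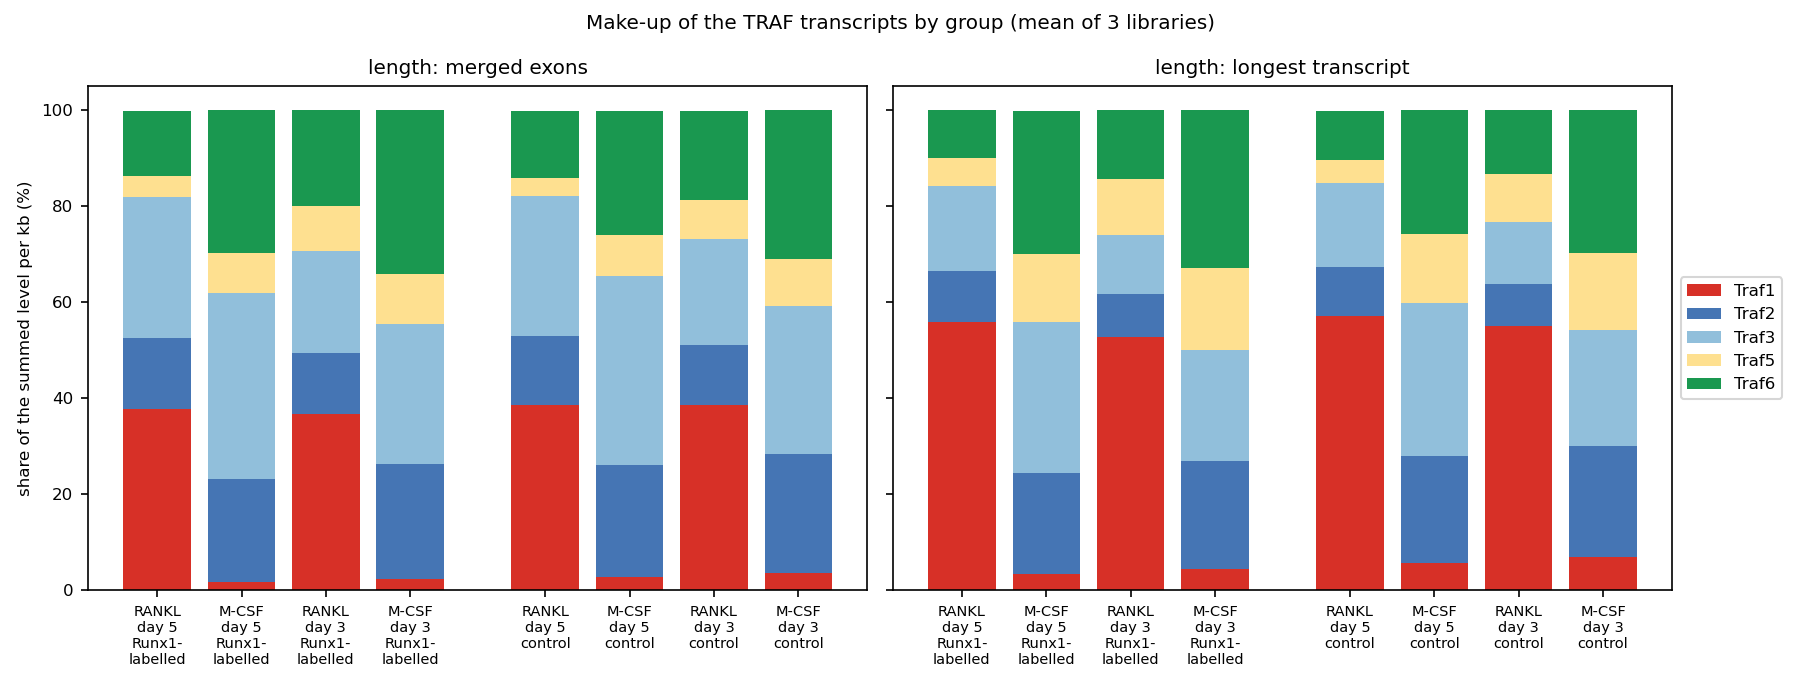
Share (%) of each of 5 TRAF genes in their summed level per kb, as the mean of 3 libraries per group, with merged exons (left) or the longest transcript (right) as the length. In each RANKL group Traf1 is the largest segment, and in each group in M-CSF alone it is the smallest.

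Map3k14, which encodes NIK (ENSMUSG00000020941, chr11:103219762-103267472), was lower with RANKL in 3 of the 4 comparisons. At day 5 it had 27.4, 30.3 and 25.6 CPM in Runx1-labelled cells with RANKL, against 37.6, 36.1 and 46.0 CPM in M-CSF alone. Control cells at day 5 had 27.0, 30.0 and 30.7 CPM with RANKL, against 44.1, 41.1 and 47.7 CPM. The media did not overlap at day 5, and Map3k14 fell by 0.52 (SE 0.14, adjusted p 0.00305) and by 0.60 (SE 0.14, adjusted p 0.00102) on the log2 scale. At day 3 the media overlapped: Runx1-labelled cells had 24.5, 29.7 and 25.5 CPM with RANKL, against 27.6, 36.3 and 32.2 CPM, and control cells had 34.7, 25.8 and 26.3 CPM, against 44.4, 36.3 and 33.5 CPM. The day 3 differences were -0.27 in Runx1-labelled (adjusted p 0.0963, and -0.37 with 0.0382 without M-CSF library 1) and -0.39 in control cells (adjusted p 0.0178). The control call was lost when M-CSF library 1 or RANKL library 2 or 3 was left out (adjusted p 0.0778 to 0.108), and the Runx1-labelled call at day 5 without the 4 libraries numbered 3 (-0.36, adjusted p 0.0965). Per kilobase, the level of Traf3 was 3.74 ± 0.534 and 4.76 ± 0.326 times that of Map3k14 in Runx1-labelled cells at days 3 and 5 with RANKL, against 1.17 ± 0.351 and 1.25 ± 0.086 times in M-CSF alone. The media did not overlap in this ratio. It combines the higher Traf3 and the lower Map3k14 values already given, so it is no separate result. The ratio is of RNA and not of protein, and no test was run on it. Another choice of length changes the ratio by the same factor in every library, so it cannot alter the overlap. Map3k14 shares 135 exonic bases with 1700028N14Rik, which had 144 counts over all libraries against 17673 for Map3k14.

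Cyld, the deubiquitinase (ENSMUSG00000036712, chr8:88697028-88751945), rose with RANKL in each comparison. It had 134, 133 and 116 CPM in Runx1-labelled cells at day 3 with RANKL, against 78.8, 84.5 and 69.5 CPM in M-CSF alone. Control cells at day 3 had 128, 115 and 111 CPM with RANKL, against 83.9, 75.0 and 68.7 CPM. Values did not overlap, with log2 fold changes of 0.72 (SE 0.09, adjusted p 8.24e-07) and 0.64 (SE 0.09, adjusted p 3.74e-06). At day 5 the ranges were 80.5 to 87.3 CPM in Runx1-labelled cells with RANKL, against 66.6 to 72.9 CPM, and 76.6 to 86.9 CPM in control cells with RANKL, against 60.7 to 67.5 CPM. The log2 fold changes at day 5 were 0.28 (adjusted p 0.0133) and 0.35 (adjusted p 0.00288). In Runx1-labelled cells the day 5 call was lost without M-CSF library 1 or 2 or RANKL library 3 (0.23 to 0.25, adjusted p 0.0599 to 0.0929).

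Tab2 and Gab2, the docking proteins, changed little. Tab2 (ENSMUSG00000015755, chr10:7905653-7956230) had 229, 245 and 216 CPM in Runx1-labelled cells at day 3 with RANKL, against 229, 203 and 174 CPM in M-CSF alone, and 163, 171 and 166 CPM at day 5 with RANKL, against 207, 202 and 174 CPM. Control cells had 234, 209 and 219 CPM at day 3 with RANKL, against 196, 175 and 183 CPM, and 166, 161 and 163 CPM at day 5, against 193, 186 and 177 CPM. With RANKL it was thus above M-CSF alone at day 3, with overlap in Runx1-labelled cells, and below it at day 5. The log2 fold changes were 0.19 and -0.22 in Runx1-labelled (adjusted p 0.0755 and 0.0436) and 0.26 and -0.18 in control cells (adjusted p 0.0182 and 0.0986) at days 3 and 5. These calls depended on single libraries and on the scaling. That at day 5 in Runx1-labelled cells was lost without any of 5 of 6 libraries, all but M-CSF number 3 (adjusted p 0.0624 to 0.125), and that at day 3 in control cells without RANKL library 1 or M-CSF library 2 (adjusted p 0.0769 and 0.0989), while upper quartile scaling called Tab2 in the other 2 comparisons as well.

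Gab2 (ENSMUSG00000004508, chr7:97081586-97308946) overlapped between media everywhere. It had 121, 140 and 102 CPM in Runx1-labelled cells at day 3 with RANKL, against 78.2, 118 and 78.3 CPM in M-CSF alone, and 135, 109 and 91.3 CPM in control cells, against 124, 80.6 and 77.3 CPM. Day 5 values lay between 69.5 and 89.6 CPM in Runx1-labelled cells with RANKL, against 83.3 to 97.0 CPM, and between 76.2 and 84.8 CPM in control cells, against 81.2 to 92.1 CPM. The log2 fold changes were 0.41 (95% interval 0.03 to 0.79, adjusted p 0.0617) and -0.15 (-0.54 to 0.23) in Runx1-labelled and 0.25 (-0.13 to 0.63) and -0.10 (-0.48 to 0.29) in control cells at days 3 and 5. In Runx1-labelled cells at day 3 Gab2 passed the test when M-CSF library 2, the highest of the 3, was left out (0.63, adjusted p 0.00641), without RANKL library 3 (0.51, adjusted p 0.0361), and in 3 of 7 other settings (0.41 to 0.46, adjusted p 0.0299 to 0.042). In control cells at day 3 it passed without M-CSF library 1, also the highest of its group (0.49, adjusted p 0.0225).

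Day 5 was set against day 3 within each genotype and medium. In M-CSF alone the receptor and Traf3 were higher at day 5. With RANKL Traf5, Traf6, Cyld and Tab2 were lower at day 5 in both genotypes, and the receptor passed the test in neither. In M-CSF alone 2 members were higher at day 5 in Runx1-labelled cells (14.3% of all genes were called, 7.17% higher) and 2 in control cells (23.7%, 12.2% higher), and 0 were lower in either by edgeR (7.08% and 11.5% of genes). DESeq2 called 2 members in each genotype, and 2673 of the 15035 genes in Runx1-labelled and 4013 in control cells. By edgeR 3 members in each genotype had an unadjusted p under 0.05, as did 4317 and 5482 of all genes. With RANKL 1 member was higher and 5 lower at day 5 in Runx1-labelled cells, where 33.2% of all genes were called (17.6% higher, 15.6% lower), and 1 higher and 4 lower in control cells, where 26.8% were (14.1% and 12.7%). Summed stromal markers also ran higher at day 5 with RANKL, without overlap between the days. They had 30.5 to 305 CPM against 11.8 to 23.9 CPM at day 3 in Runx1-labelled cells and 34.6 to 82.0 against 14.1 to 30.8 CPM in control cells. In M-CSF alone the sums reached higher at day 5, but the days overlapped in both genotypes. There they had 19.3 to 143 against 8.24 to 19.4 CPM in Runx1-labelled and 12.9 to 121 against 8.26 to 15.7 CPM in control cells. Col1a1 and Col1a2 had the highest day 5 means of this list, and not every marker rose. Runx2 averaged 1.63 CPM at day 5 against 3.07 at day 3 in M-CSF alone in Runx1-labelled cells, and 1.96 against 3.83 in control cells. Lepr, under 1 CPM, was lower at day 5 throughout. Sums of 6 erythroid and megakaryocyte markers rose with day in each group, as from 317 to 416 to 1455 to 1529 CPM in control cells in M-CSF alone. The part of these markers in the day differences of either medium, those of Tnfrsf11a and Traf3 included, was not tested.

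In M-CSF alone Tnfrsf11a was 0.97 higher on the log2 scale at day 5 than at day 3 in Runx1-labelled cells (SE 0.21, adjusted p 0.00447) and 1.22 higher in control cells (SE 0.21, adjusted p 0.0005), and in neither genotype did the days overlap, from the values given above. Of all genes, 15.0% and 21.2% were higher without overlap in these comparisons. The call of Tnfrsf11a in Runx1-labelled cells was lost when only the 2 groups compared entered the fit (0.95, adjusted p 0.0643). With RANKL its day difference was -0.20 (95% interval -0.64 to 0.24) in Runx1-labelled and -0.08 (-0.52 to 0.36) in control cells.

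Traf3 was higher at day 5 in both media, by 0.42 with RANKL and 0.43 in M-CSF alone in Runx1-labelled cells and by 0.41 and 0.42 in control cells (SE 0.14 each, adjusted p 0.0263, 0.0468, 0.0363 and 0.0383). Each of these 4 calls was lost when any of 3 to 5 of its 6 libraries was left out (adjusted p 0.0541 to 0.233). In Runx1-labelled cells these were libraries 1 and 2 of day 3 and 2 of day 5 with RANKL, and 1 and 2 of day 3 and 2 and 3 of day 5 in M-CSF alone. In control cells they were all but library 3 of day 3 with RANKL, and 1 and 2 of day 3 and 1 and 3 of day 5 in M-CSF alone. Traf5 came down most with RANKL, by 1.12 on the log2 scale in each genotype (SE 0.15, adjusted p 2.19e-05 in Runx1-labelled and 3.37e-05 in control cells), and the days did not overlap. Of all genes, 22.7% and 24.2% were lower without overlap in these comparisons. Traf6 fell by 0.60 (adjusted p 9.22e-05) and 0.43 (adjusted p 0.00224), Cyld by 0.59 (adjusted p 7.24e-05) and 0.53 (adjusted p 0.00033), and Tab2 by 0.47 (adjusted p 0.000561) and 0.43 (adjusted p 0.00145) in Runx1-labelled and control cells with RANKL, each with SE 0.09. Gab2 fell by 0.58 in Runx1-labelled cells with RANKL (SE 0.18, adjusted p 0.0192), a call lost without RANKL library 2 of day 3 or of day 5 (adjusted p 0.0896 and 0.0991), and differed by -0.49 in control cells (adjusted p 0.0542, and 0.0142 to 0.0358 in 5 of 6 other settings). Traf1, Traf2 and Map3k14 passed the test for day in neither medium, but Traf1 did in Runx1-labelled cells in M-CSF alone when library 1 of day 3, its lowest, was left out (-0.76, adjusted p 0.0164). With RANKL the day differences of Traf1 were 0.00 in both genotypes (95% intervals -0.42 to 0.42 and -0.41 to 0.42).

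**Figure D4:**
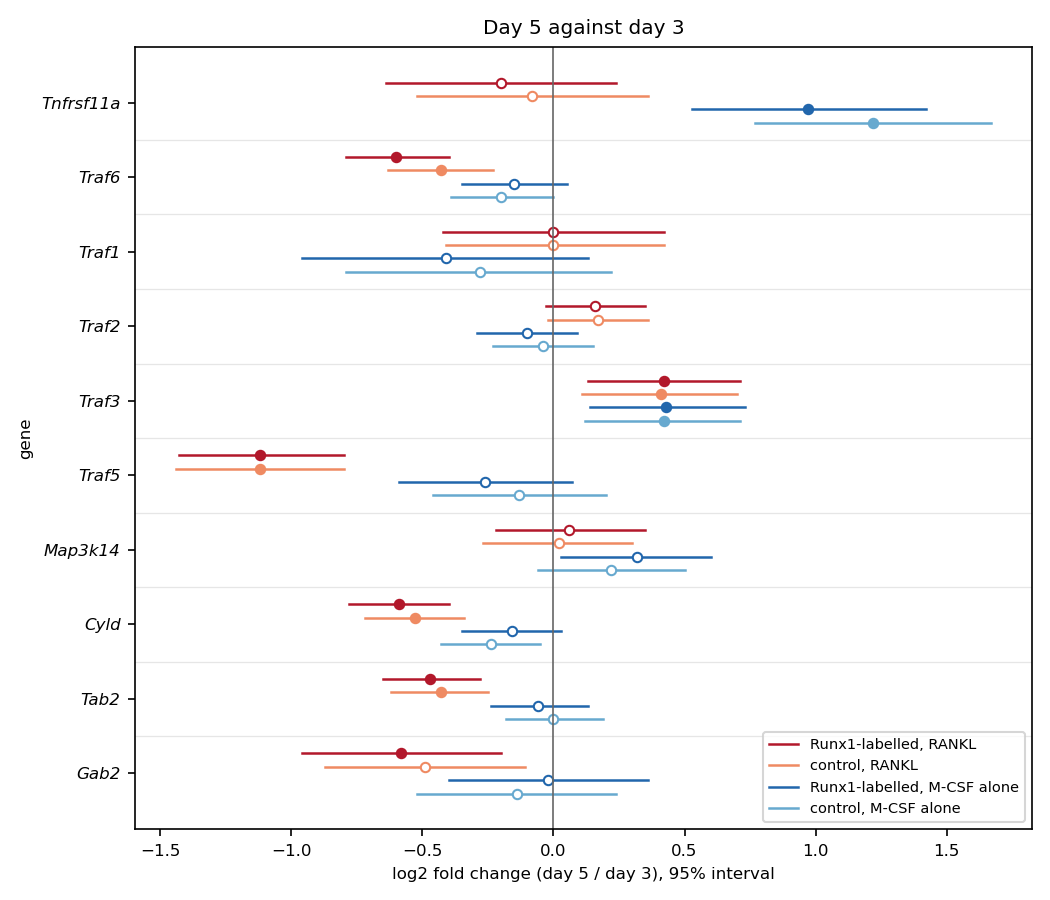
Log2 fold change of day 5 over day 3 (horizontal axis) for the 10 genes with 95% intervals, with RANKL (red) and in M-CSF alone (blue), in Runx1-labelled cells (darker) and control cells (lighter). Filled points passed an adjusted p under 0.05. Tnfrsf11a lies at 0.97 and 1.22 in M-CSF alone and at -0.20 and -0.08 with RANKL, and Traf5 lies at -1.12 with RANKL in both genotypes.

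Whether the response to RANKL itself differed between the days was tested as an interaction. It was smaller at day 5 than at day 3 for 5 members in Runx1-labelled cells, where 15.2% of all genes were called (7.13% with a lower and 8.09% with a higher log2 response), and for 3 members in control cells, where 14.0% were (6.73% and 7.26%). It was larger for 0 members in both by edgeR. In Runx1-labelled and control cells DESeq2 called 5 and 3 members, and 2763 and 2632 of the 15035 genes. By edgeR 6 and 4 members had an unadjusted p under 0.05, as did 4224 and 3985 of all genes. The log2 response of Tnfrsf11a was lower by 1.17 (SE 0.30, adjusted p 0.0107) in Runx1-labelled and by 1.30 (SE 0.30, adjusted p 0.00565) in control cells. For this gene the levels that moved between the days were those in M-CSF alone. The log2 response of Traf5 was lower by 0.86 (SE 0.22, adjusted p 0.0100) and 0.99 (SE 0.22, adjusted p 0.00396), and for this gene the values that moved were those with RANKL. That of Tab2 was lower by 0.41 (adjusted p 0.0313) and 0.44 (adjusted p 0.0234), with SE 0.13. Traf6 and Cyld passed in Runx1-labelled cells (-0.44 and -0.43, SE 0.13, adjusted p 0.0269 and 0.0253), while control cells gave -0.23 (adjusted p 0.28) and -0.29 (adjusted p 0.154), and whether the genotypes differ in this was not tested. In Runx1-labelled cells the call of Traf6 was lost without RANKL library 1 or 2 of day 5 or M-CSF library 2 of day 3 (adjusted p 0.0567 to 0.0882), and that of Cyld without RANKL library 1 of day 3, RANKL library 2 of day 5 or M-CSF library 3 of either day (0.0602 to 0.0713). That of Tab2 was lost without any of 7 of 12 libraries in Runx1-labelled cells, namely libraries 1 and 2 of each group other than day 3 in M-CSF alone, and library 3 of that group (0.0519 to 0.0837), and in control cells without M-CSF library 2 of day 3 or RANKL library 2 of day 5 (0.0537 and 0.0671). The calls of Tnfrsf11a and Traf5 held in both genotypes with each library left out in turn, but other settings ended calls too. With no filter on low counts Traf5 alone of the 5 was called in Runx1-labelled cells (1702 genes in all, against 2288 with the filter), with Tnfrsf11a at -1.13 (adjusted p 0.0548), and Tab2 was lost in control cells (-0.40, adjusted p 0.108). With just the 4 Runx1-labelled groups fitted, Tnfrsf11a and Traf5 were called there and Traf6, Cyld and Tab2 were not (1568 genes in all). Over all such settings that ended a call in Runx1-labelled cells, the adjusted p was 0.0767 to 0.145 for Traf6, 0.0529 to 0.138 for Cyld and 0.107 to 0.157 for Tab2. Without library 1 of day 3 in M-CSF alone, Traf1 had a larger response at day 5 in Runx1-labelled cells (0.76, adjusted p 0.0356), and without library 2 there Gab2 a smaller one (-0.78, adjusted p 0.0321).

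The study set the genotypes side by side to ask about Runx1 in osteoclast formation, but Runx1 RNA did not pass the test between them, so the values below compare the labels. No member differed between Runx1-labelled and control cells at an adjusted p under 0.05 by edgeR in any of the 4 conditions, and 0 of the 15035 genes tested did. DESeq2 called 1 and 5 genes with RANKL and 3 and 18 in M-CSF alone at days 3 and 5, none of them a member. Without the 4 Runx1-labelled libraries numbered 3, edgeR called 6 and 39 genes with RANKL and 35 and 110 in M-CSF alone at days 3 and 5, and without library 3 of Runx1-labelled cells at day 5 it called 22 genes in M-CSF alone and 7 with RANKL there, again 0 of them members. At an unadjusted p under 0.05 there were 258 and 457 genes with RANKL and 530 and 948 in M-CSF alone, of which Traf1 was the only member, in M-CSF alone at both days. Leaving Traf1 aside, the 36 fitted log2 differences of the other 9 members in the 4 conditions ran from -0.25 to 0.17, and their 95% intervals from -0.69 to 0.50. A difference that misses the threshold does not show that the genotypes are alike. Each interval was taken by itself, and without the 4 Runx1-labelled libraries numbered 3 some of these members' intervals reached further. They ran to -0.79 for Tnfrsf11a in M-CSF alone at day 5 and to 0.66 for Gab2 with RANKL at day 3. Without the 4 Runx1-labelled libraries numbered 3, Tnfrsf11a in M-CSF alone differed by -0.32 (adjusted p 0.782) at day 3 and -0.35 (adjusted p 0.639) at day 5, against 0.00 and -0.24 with them. In that edgeR fit Traf3 (-0.31, unadjusted p 0.0312) and Tab2 (0.22, unadjusted p 0.0152) at day 3 in M-CSF alone also fell under 0.05. So did Traf6 at day 5 with RANKL (-0.27, unadjusted p 0.0123). With all libraries these differed by -0.10, 0.13 and -0.13. None passed by adjusted p (0.597, 0.513 and 0.419).

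Traf1 in M-CSF alone was the widest of these differences. In M-CSF alone all Runx1-labelled libraries lay below all control libraries, at 1.85, 4.66 and 5.27 CPM against 7.37, 5.59 and 5.68 CPM at day 3 and at 2.08, 3.03 and 3.69 CPM against 5.59, 4.28 and 5.41 CPM at day 5. Of all genes, 2.69% and 8.03% were lower without overlap in this way at days 3 and 5. Traf6 did not overlap between genotypes either at day 5 in M-CSF alone. It had 46.0, 44.8 and 47.2 CPM in Runx1-labelled against 42.3, 42.4 and 39.9 CPM in control cells, where 8.74% of all genes were higher without overlap. The log2 fold change of Traf1 was -0.66 at day 3 (SE 0.24, 95% interval -1.17 to -0.16, unadjusted p 0.0131, adjusted p 1) and -0.80 at day 5 (SE 0.26, -1.34 to -0.25, unadjusted p 0.0064, adjusted p 0.639), which did not pass the test. Without the 4 Runx1-labelled libraries numbered 3 it was -0.94 (adjusted p 0.222) and -0.99 (adjusted p 0.143). With RANKL the difference was -0.11 (-0.53 to 0.30) and -0.12 (-0.54 to 0.30) at days 3 and 5. The log2 response of Traf1 to RANKL was 0.55 (-0.11 to 1.21) larger in Runx1-labelled than in control cells at day 3 and 0.68 (-0.01 to 1.36) larger at day 5, each with an adjusted p of 1. None of the 10 members, and none of all genes, passed that interaction by edgeR at either day, where 242 and 481 genes, 0 of them members, had an unadjusted p under 0.05. Without the 4 Runx1-labelled libraries numbered 3, Traf1 at days 3 and 5 (0.77 and 0.79, unadjusted p 0.0287 and 0.0326) fell under 0.05 by edgeR. So did Traf6 at day 5 (-0.39, unadjusted p 0.00959, against -0.28 with them), and no member passed by adjusted p.

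**Figure D5:**
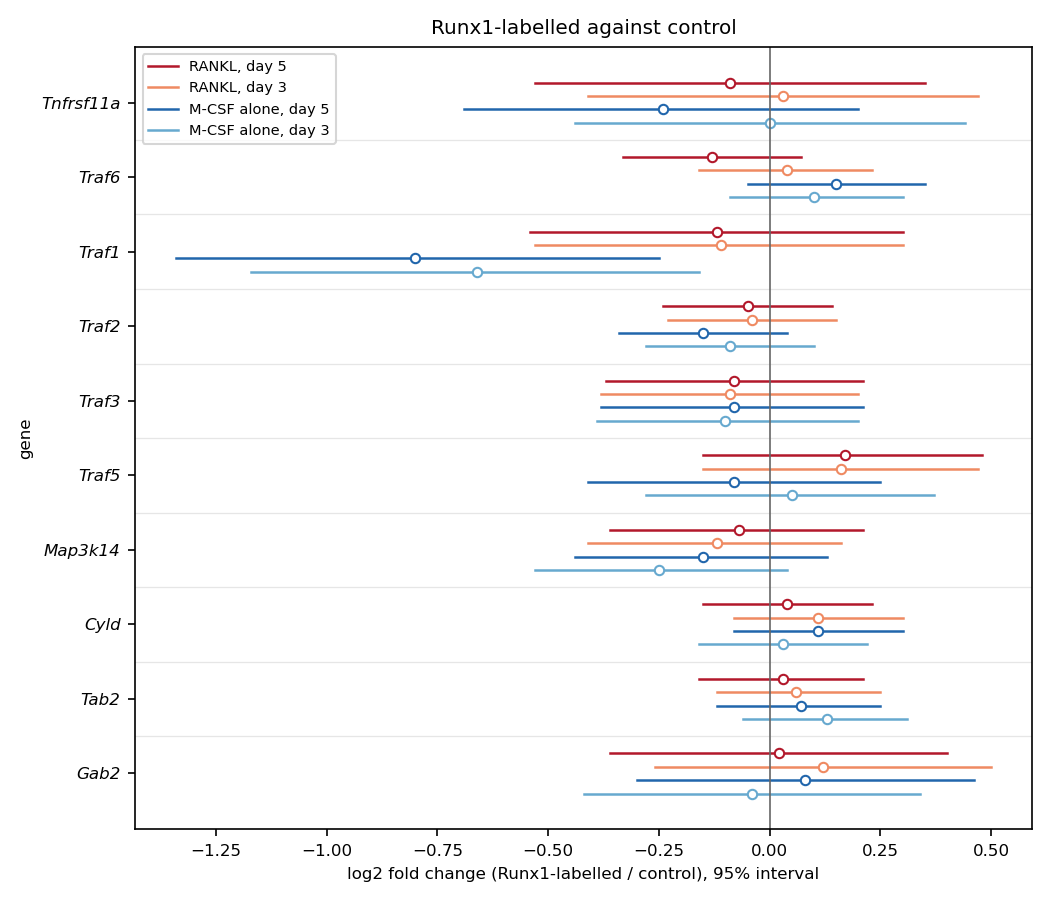
Log2 fold change of Runx1-labelled over control cells (horizontal axis) for the 10 genes with 95% intervals, with RANKL (red) and in M-CSF alone (blue) at days 5 and 3. Open points did not pass an adjusted p under 0.05, which is the case for all 40. Traf1 in M-CSF alone lies at -0.80 and -0.66, and the others lie between -0.25 and 0.17.

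Around these 10 genes, 84 further genes of the pathway were taken in 8 lists, chosen with results of these data known, of which 83 passed the filter on low counts. Tnfsf11, which encodes RANKL, did not. With RANKL, 33 of the 83 were higher and 29 lower at day 3 in each genotype, and 34 higher and 27 lower at day 5 in each. Over all genes 29.1% to 29.5% were higher and 29.7% to 30.1% lower at day 3, and 26.4% to 27.5% and 23.1% to 24.9% at day 5, which are the shares to read each list's counts against. In all 4 comparisons 26 were higher and 23 lower, where 17.8% and 16.3% of all genes were. Between genotypes 0 of the 83 passed in any condition. For each list the 2 genes with the largest fold change in each direction, among those called at day 3 in both genotypes, are named with log2 fold changes for Runx1-labelled cells and then control cells at day 3.

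The non-canonical NF-κB list holds Birc2, Birc3 and Otud7b, which act on TRAF3 and NIK, and Chuk, Nfkb2 and Relb, which act after NIK. In it 5 of 6 genes were higher and 0 lower at day 3 in both genotypes, with a median of 2.14 in Runx1-labelled and 1.79 in control cells. Nfkb2, which encodes the p100 precursor that this branch processes, rose by 2.40 and 2.14, and its partner Relb by 2.17 and 1.94. At day 5, 5 of 6 were higher in Runx1-labelled and 6 of 6 in control cells, with a median of 1.39 in Runx1-labelled cells. In the canonical list 5 of 8 were higher and 1 lower in Runx1-labelled and 6 and 1 in control cells, with the inhibitor Nfkbia at 3.49 and 3.32, Nfkbie at 1.47 and 1.26, and the kinase Ikbkb at -0.39 and -0.37.

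Of 10 other TRAF family and TRAF-binding genes 3 were higher and 6 lower in Runx1-labelled and 3 and 5 in control cells. Tank, which binds TRAF2 and TRAF3, rose by 2.64 and 2.95, and Traf4, at 2.03 CPM with RANKL in Runx1-labelled cells, by 0.93 and 1.39, while Traf3ip3 changed by -2.20 and -2.28 and Tifa, a TRAF6-binding adaptor, by -2.15 and -2.25. In the TAK1 and ubiquitin list 5 of 10 were higher and 1 lower in Runx1-labelled and 6 and 1 in control cells. Ecsit, a TRAF6 partner, rose by 1.85 and 2.04 and Prkcz, at about 1 CPM or less, by 2.26 and 2.87, and Map3k7, which encodes TAK1, changed by -0.28 and -0.23. Both tested receptors of RANKL beside RANK rose at day 3: Lgr4 by 2.54 and 2.81, and the decoy Tnfrsf11b, at under 1 CPM, by 5.39 and 3.90 (SE 1.57 and 1.29).

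Among 14 deubiquitinases and linear ubiquitin genes 6 were higher and 3 lower in Runx1-labelled and 5 and 4 in control cells. Tnfaip3, which encodes the TRAF6-directed editor A20, rose by 3.85 and 3.78, above the 0.72 and 0.64 of Cyld. Uchl1 rose by 2.49 and 2.31, and the linear chain genes Rbck1 (-0.73 and -0.70) and Sharpin (-0.45 and -0.59) fell. Of 13 MAP kinase genes 4 were higher and 7 lower in Runx1-labelled and 3 and 7 in control cells, with Map2k3 at 1.49 and 1.44, Mapk8, which encodes JNK1, at 1.08 and 1.14, Map3k1 at -1.65 and -1.84, and Mapk3, which encodes ERK1, at -1.47 and -1.53. In the list of Gab2, Src and phosphoinositide 3-kinase partners 3 of 20 were higher and 11 lower in both genotypes. Src, the kinase of the osteoclast ruffled border, rose by 7.88 and 8.02 and Pik3cb by 2.91 and 2.99. Of the relatives of Gab2, Gab3 changed by -3.36 and -3.33 and Gab1 by -2.03 and -2.53, while Gab2 itself, at 0.41 and 0.25, did not pass the test.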

How the data were processed

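The authors deposited whole-number counts of reads for each gene and library in 1 table; per the labels' protocols the libraries were made with a TruSeq RNA kit from 250 ng of total RNA. Per the submitters' processing notes STAR, DESeq2 and GRCm39 were used, with no version or counting setting stated. Of 54532 identifiers 54495 were in GENCODE M21 (GRCm38), and 98.3% of positions were those of that build, so coordinates are given as deposited and match GRCm38. Count columns were matched to libraries by title. Deposited gene lengths equal merged exons for 98.0% of genes.

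From the counts, edgeR 4.0.16 (R 4.3.3) fitted a robust quasi-likelihood model with 1 coefficient per group to all 24 libraries after filterByExpr (15035 genes, 27.6%) and TMM scaling. P-values were adjusted by Benjamini-Hochberg over all genes tested and called under 0.05; where no other tool is named, adjusted p-values are edgeR's. SEs and 95% intervals come from the fit. Libraries differed by more than counting noise (lowest chi-square per degree of freedom 3.54). The fit was tested on simulated counts. Alternatives were DESeq2 1.42.0, other scalings, no filter, fits of the compared groups alone, a replicate block, and leaving libraries out. The labels' numbers 1 to 3 met the rule for pairs (each correlation of deviations over 0.1) for Runx1-labelled RANKL against M-CSF alone at day 5 (0.166 to 0.369), where the block changed no member's call. Pattern likeness used group means of log2(CPM + 0.5) for genes averaging a log2 CPM of 1 or more. The members, lists and naming rules were chosen with earlier results of these data known; every member is named, and other genes follow the rules stated beside them.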

Additional observations from a re-analysis of the deposited data

Results flagged for a closer look

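The response to RANKL differed between day 5 and day 3 for 5 of the 10 genes by a test of that difference (edgeR, adjusted p under 0.05), which is why they are listed here. Over all genes 15.2% were called in Runx1-labelled and 14.0% in control cells. The 5 calls in Runx1-labelled cells were 1 with no filter on low counts, 2 with just the compared groups fitted and 2 to 6 with 1 library left out, and the 3 in control cells were 2, 3 and 2 to 3. In Runx1-labelled cells the log2 response was lower at day 5 by 1.17 for Tnfrsf11a (a difference of -1.17), 0.86 for Traf5 (-0.86), 0.44 for Traf6 (-0.44), 0.43 for Cyld (-0.43) and 0.41 for Tab2 (-0.41). In control cells the differences were -1.30 for Tnfrsf11a, -0.99 for Traf5 and -0.44 for Tab2. The Tnfrsf11a differences went with a higher level in M-CSF alone at day 5, and those of the other 4 genes with a lower level with RANKL at day 5.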

How the results depend on the processing

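No log2 fold change of a member that passed the test changed direction under any alternative. Of 56 such results, 24 of 365 values under other settings and 52 of 384 with 1 library left out no longer passed. Of the 104 that had not passed, 15 of 705 and 10 of 816 did, and 9 and 58 changed sign with no call. No ratio of group means among 120 changed sign between TMM and raw library totals, and the largest shift was 0.12 (log2). Of 80 ranks per length 46 moved with the longest transcript.

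Over all genes, the genotype comparisons, with 0 calls, gave 35 and 110 in M-CSF alone and 6 and 39 with RANKL at days 3 and 5 without the 4 Runx1-labelled libraries numbered 3, and 3, 18, 1 and 5 with DESeq2, in the same order. Day 5 in M-CSF alone gave 1 with no filter. The interaction of genotype and RANKL at day 5 gave 7 without the libraries numbered 3. With 1 library left out, genotype gave 0 to 22 calls at day 5 in M-CSF alone (22 without Runx1-labelled library 3, 3 without control library 1) and 0 to 7 at day 5 with RANKL (7 without Runx1-labelled library 3). In none of these was a member called.

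With only the compared groups fitted, day in M-CSF alone gave 778 genes and 0 members in Runx1-labelled cells (2143 and 2 in the full fit) and 1917 genes and 1 member in control cells (3570 and 2), and the day interaction 1568 genes and 2 members in Runx1-labelled cells (2288 and 5). With no filter, day in M-CSF alone gave 1476 genes and 1 member and the day interaction 1702 genes and 1 member, both in Runx1-labelled cells. With 1 library left out, day in M-CSF alone gave 1229 to 3127 genes and 1 to 2 members in Runx1-labelled and 1920 to 4203 genes and 1 to 3 members in control cells, day with RANKL gave 3316 to 4913 and 2614 to 4032 genes, and the day interaction 1578 to 2590 genes and 2 to 6 members in Runx1-labelled cells.

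The labels' numbers 1 to 3 were checked as a pairing: deviations of same-numbered libraries correlated at -0.066 to 0.369 within a genotype (15 of 36 pairs over 0.1) and at -0.121 to 0.461 across genotypes (11 of 48), so they were not taken as pairs in general. All 3 numbers passed for Runx1-labelled RANKL against M-CSF alone at day 5, and the sex-linked counts show Runx1-labelled number 3 apart from 1 and 2 in each medium and day. With the number as a replicate block, the genotype comparisons gave 1 and 3 genes in M-CSF alone at days 3 and 5 and 1 at day 5 with RANKL. In the block fit within genotypes Gab2 and Tab2 passed for RANKL at day 3 in Runx1-labelled cells (adjusted p 0.0299 and 0.0336), as did Cyld (0.0403) for day in M-CSF alone and Gab2 (0.0321) for day with RANKL in control cells.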
